A study of Mus musculus with 8 samples.

Results

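Respiratory complexes III and IV are the last of the proton pumps that pass electrons along the inner mitochondrial membrane, and 38 nuclear genes for their subunits and assembly factors are described here. They were taken by name from the 49315 rows of a raw count table whose Ensembl identifiers were given symbols from GENCODE M21 on mm10. They comprise 9 subunits of complex III, cytochrome c, 11 common and 4 tissue-restricted subunits of complex IV, Cox7a2l and 12 assembly factors of complex IV. Of the 38 genes, 37 passed the filter on low counts and were among the 17450 genes tested. Sco2 did not, with 1 count in WT-1, 1 count in KO-1 and 0 counts in the other libraries.

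The study sequenced RNA from the femoral shaft of 24-week-old male mice of the strain given as C57BL6, freed of the bone ends and rinsed of marrow. It compared 4 wild-type (WT) animals with 4 animals lacking Girk3 on both alleles (KO). Girk3 is the protein name of Kcnj9, a subunit of inwardly rectifying potassium channels opened by G proteins. Both groups share strain, sex, age and tissue preparation. Which part of the gene was deleted, in which cells it would be absent, and how the WT animals are related to the KO line was not given in the sources used here. WT and KO below name the libraries by their labels, and the replicate number names a library without pairing it.

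Complex III takes electrons from ubiquinol and hands them to cytochrome c, and complex IV, cytochrome c oxidase, passes them from cytochrome c to oxygen. Their catalytic cores are built around proteins encoded in mitochondrial DNA, and the nuclear subunits surround and regulate these cores. Several complex IV subunits exist as a common form and as a form found chiefly in heart and skeletal muscle, and assembly factors insert the heme and copper that complex IV needs.

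Library totals ranged from 30087749 to 36553713 counts in WT and from 30937465 to 32348592 counts in KO. Kcnj9 had 7, 6, 6 and 23 counts in WT-1 to WT-4 and 0, 8, 4 and 7 counts in KO-1 to KO-4, too few to check the labels. Along the first principal component of all genes WT-4 and KO-4 stood at opposite ends, at 53.5 and -60.5, with the other libraries between -20.1 and 14.7. The tissue held much RNA of skeletal muscle: 27 muscle marker genes took 10.5% to 16.4% of counts in WT and 14.6% to 19.5% in KO, with the lowest share in WT-4 and the highest in KO-4. Of these 27 markers 21 had a positive log2 fold change, with a median of 0.42 over the list. Every KO library lay above every WT library for 2 of them, about the share over all genes (7.33%). Of 7 osteoblast markers 6 had a negative log2 fold change, with a median of -0.20, and of 5 osteocyte markers all 5 did, with a median of -0.38. The part of either shift in the results below was not tested. The summed osteoblast markers lay at 9015 to 21837 counts scaled to library size (CPM) in WT and 10038 to 18262 CPM in KO, and the summed osteocyte markers at 106 to 248 and 65.2 to 166 CPM. Of 3 brown adipocyte markers, Ucp1 and Elovl3 had at most 6 and 4 counts in any library. Cidea, the only 1 tested, overlapped between groups at a log2 fold change of 0.87 (adjusted p 0.328 by edgeR). All 4 white adipocyte markers had positive values, with a median of 0.62 and 0 of them without overlap. RNA of blood and marrow cells was also present, with Hbb-bs at 1298 to 4310 CPM in WT and 1812 to 3469 CPM in KO. All 5 neutrophil markers had positive values, with a median of 0.59. Of 5 B cell markers 4 were negative, with a median of -0.53, and of 5 erythroid markers 3 were, with a median of -0.16. The part of fat or of these cells in the results below was not tested.

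Transcripts of both complexes stood higher in KO than in WT almost throughout, by small amounts that edgeR's test did not call. Of the 37 genes tested 36 had a positive log2 fold change (KO minus WT), against 48.6% of all genes tested, and the median was 0.53 against -0.01 over all genes. The lowest KO library lay above the highest WT library for 27 of the 37, against 7.33% of all genes, and no gene had the reverse, against 5.78%. Together the genes took 0.620%, 0.601%, 0.695% and 0.633% of counts in WT-1 to WT-4 and 1.07%, 0.926%, 0.872% and 0.766% in KO-1 to KO-4, so that the groups did not overlap.

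By the quasi-likelihood test of edgeR, adjusted by Benjamini-Hochberg over all genes, 0 of the 37 passed an adjusted p of 0.05, where 0.0115% of all genes did. At an unadjusted p under 0.05, 29 of the 37 were higher in KO and 0 were lower, against 9.59% and 8.59% of all genes. DESeq2 called 23 of the 37, all higher in KO, against 3.91% of all genes called higher, and limma-voom with sample weights called 17, against 2.41%. Whether a given gene passed therefore depended on the test. Values below are those of edgeR unless named otherwise, and a gene is described as changed by a named test only. The sources used here do not say how the animals were housed or on which days the libraries were made, so these p-values measure only the spread between the libraries. In whole tissue, fewer cells of a type and less RNA per cell cannot be told apart, and this applies to every level below.

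**Figure D1:**
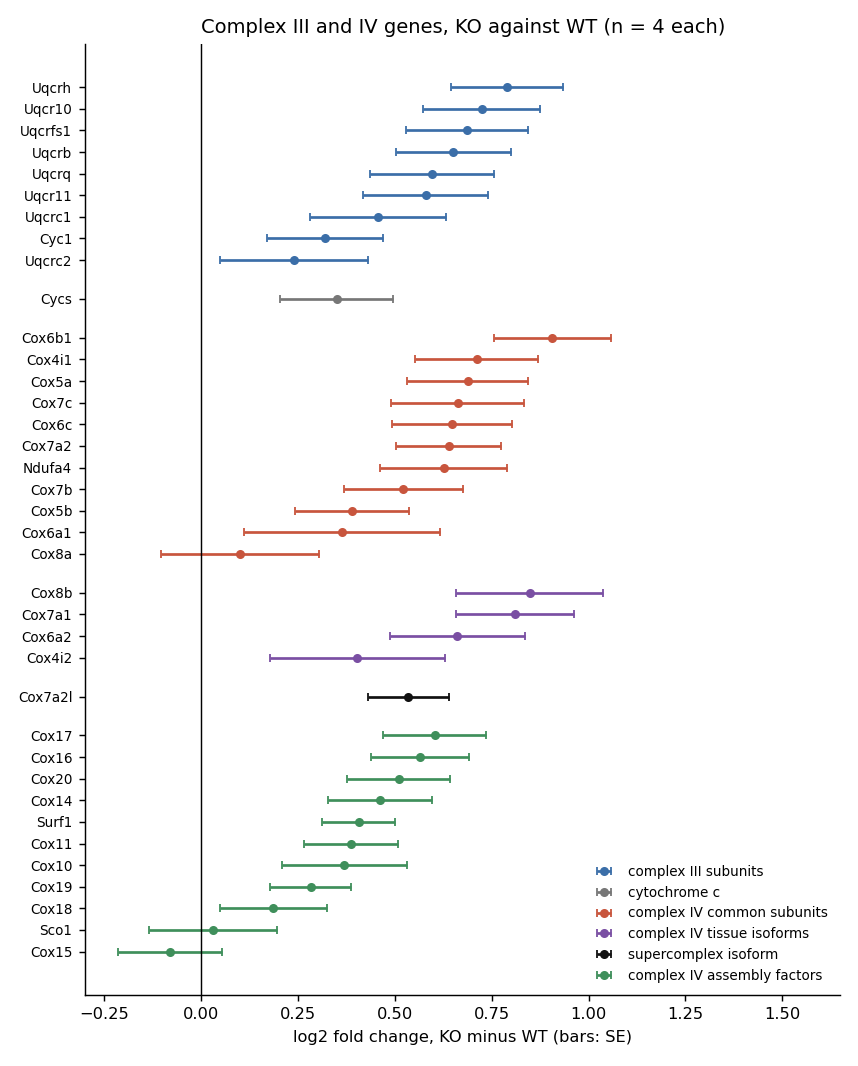
Log2 fold change (KO minus WT) of each tested gene of complexes III and IV with its standard error, grouped by role. Of 37 points 36 lie to the right of 0, with Cox6b1 highest at 0.91 and Cox15 lowest at -0.080.

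The differences were seen in each of the 4 KO libraries. Set against the mean of WT, the median gene stood 0.73, 0.44, 0.45 and 0.56 higher on the log2 scale in KO-1 to KO-4, and at -0.03, -0.01, 0.18 and -0.16 in WT-1 to WT-4. KO-1 was the highest library for 23 of the 37 genes and WT-4 the lowest for 27. Without KO-1, 28 genes had every remaining KO library above every WT library (8.69% of all genes), and without both WT-4 and KO-4 the count was also 28 (15.5% of all genes). With WT-4 and KO-4 left out edgeR called 9 genes higher in KO, where 1.61% of all genes were: Uqcrh, Uqcr10, Cox4i1, Cox5a, Cox6a1, Cox6b1, Cox7a1, Cox7a2l and Surf1.

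**Figure D2:**
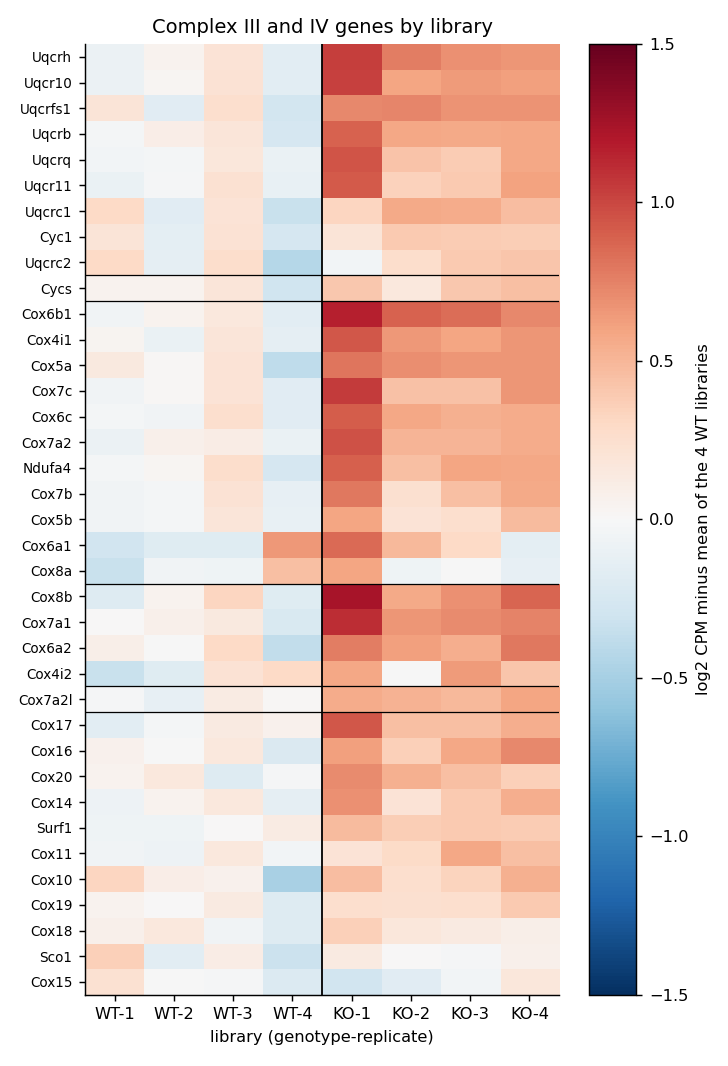
Each cell gives the log2 CPM of a gene in a library minus the mean of the 4 WT libraries (color scale, log2 units), with libraries in columns and genes in rows grouped by role. The KO columns are mostly red, most deeply in KO-1, and Cox6a1 and Cox8a are clearly above 0 in WT-4.

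The upstream sequence of 4 genes is shown because the results turn on them: the complex III subunit and the common complex IV subunit with the smallest p, Uqcrh and Cox6b1, and the muscle isoform Cox7a1 with its common partner Cox7a2. Each run is the 250 bases before the RefSeq gene start on GRCm38.p6, written 5′ to 3′ on the strand of the gene. The positions are chr4:116075071-116075320 on the minus strand for Uqcrh, chr7:30626115-30626364 on the minus strand for Cox6b1, chr7:30183921-30184170 on the plus strand for Cox7a1 and chr9:79759854-79760103 on the minus strand for Cox7a2. Capitals mark a match to CCGGAAG, the core letters bound by ETS factors such as GABP, read here on the opposite strand.
Uqcrh: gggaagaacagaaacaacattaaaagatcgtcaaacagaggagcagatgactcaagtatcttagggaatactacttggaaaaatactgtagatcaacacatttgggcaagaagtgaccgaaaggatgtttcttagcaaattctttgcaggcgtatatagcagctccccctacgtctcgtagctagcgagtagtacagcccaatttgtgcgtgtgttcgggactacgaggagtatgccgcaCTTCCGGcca
Cox6b1: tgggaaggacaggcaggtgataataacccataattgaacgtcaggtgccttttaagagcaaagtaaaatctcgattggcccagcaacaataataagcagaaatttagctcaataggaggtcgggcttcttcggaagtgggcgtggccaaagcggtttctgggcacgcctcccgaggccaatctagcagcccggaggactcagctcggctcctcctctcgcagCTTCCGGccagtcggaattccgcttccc
Cox7a1: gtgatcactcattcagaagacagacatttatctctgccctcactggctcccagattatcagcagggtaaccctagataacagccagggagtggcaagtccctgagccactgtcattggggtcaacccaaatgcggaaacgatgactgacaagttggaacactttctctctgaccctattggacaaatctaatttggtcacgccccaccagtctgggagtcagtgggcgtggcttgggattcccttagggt
Cox7a2: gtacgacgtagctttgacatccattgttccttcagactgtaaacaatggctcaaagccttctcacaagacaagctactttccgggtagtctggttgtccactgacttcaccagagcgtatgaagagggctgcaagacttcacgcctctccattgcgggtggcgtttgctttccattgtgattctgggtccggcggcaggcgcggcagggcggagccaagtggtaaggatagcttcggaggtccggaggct
The match began at position -10 from the RefSeq start in Uqcrh and at -28 in Cox6b1, where it lies inside the first exon as GENCODE M21 draws it. Neither Cox7a1 nor Cox7a2 held the letters in this window.

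RefSeq promoters, 250 bases before to 50 after the start, were found for 28 of the 38 genes, and 13 motifs were searched on both strands. CCGGAAG stood in 12 of the 28 (42.9%), against 9.08% of all 27025 promoters of that length, and its longer form CCGGAAGT in 6 (21.4%), against 3.93%. The genes with the shorter form were Uqcrh, Uqcr11, Cox6a1, Cox6b1, Cox8a, Cox10, Cox14, Cox15, Cox16, Cox20, Sco1 and Surf1. Whether the presence of a motif goes with the fold changes was not tested. The NRF1 palindrome was in 2 (7.14% against 4.68%) and its looser form, with any bases at its center, in the same 2 genes, Cox6a1 and Uqcrc1 (6.3% of all). AAGATGG, bound by YY1, was in 3 (10.7% against 6.46%), AAGATGGC in 2 (7.14% against 2.86%), CCAAT in 11 (39.3% against 37.8%) and GGGCGG, the GC box, in 13 (46.4% against 35.6%). TGACGTCA, the cAMP response element, was in Cycs and Uqcrfs1 (7.14% against 1.78%). A loose MEF2 pattern was in Cox5b alone (3.57% against 3.69%), and the E-box CAGCTG was in 2 (7.14% against 16.2%). AAGGTCA and TCAAGGTCA, sites of estrogen-related receptors, were in 0 of the 28, against 4.66% and 0.407%. The forms nest within each other, and a match is a run of letters only.

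All 9 complex III subunits had log2 fold changes above 0, from 0.24 to 0.79 with a median of 0.60, and 7 of the 9 had every KO library above every WT library. Over all genes 7.33% had that order. DESeq2 called 6 of the 9 higher in KO, against 3.91% of all genes, and limma-voom called 4, against 2.41%. Uqcrh, the hinge protein that joins cytochrome c1 to cytochrome c, stood at 160.3, 176, 197 and 153 CPM in WT-1 to WT-4 and 349, 292, 275 and 270.3 CPM in KO-1 to KO-4. The groups were well apart, with KO-1 highest, and the log2 fold change was 0.79 (SE 0.14, adjusted p 0.0728 by edgeR and 2.49e-05 by DESeq2).

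Uqcr10, a small membrane subunit, lay at 157, 172, 194 and 151 CPM in WT-1 to WT-4 and 341, 254, 262 and 257 CPM in KO-1 to KO-4. KO-1 stood above the other KO libraries, which were close together and above all WT libraries, with a log2 fold change of 0.72 (SE 0.15, adjusted p 0.0769 by edgeR and 0.000426 by DESeq2). Uqcrfs1, the Rieske iron-sulfur protein that takes electrons from ubiquinol, was read at 306, 236, 317 and 219.8 CPM in WT-1 to WT-4 and 440.1, 441, 426 and 426 CPM in KO-1 to KO-4. Here the KO libraries were almost level, with a mean of 433 ± 8.49 CPM against a WT mean of 269.5 ± 48.6 CPM (SD, n = 4 each), and the fold change was 0.69 (SE 0.16, adjusted p 0.0853 by edgeR and 0.00102 by DESeq2).

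Uqcrb, the subunit next to the site where ubiquinone is reduced, lay at 204, 223, 235 and 174 CPM in WT-1 to WT-4 and 383, 310.3, 307 and 311 CPM in KO-1 to KO-4. All KO libraries exceeded all WT libraries and KO-1 stood apart, with a log2 fold change of 0.65 (SE 0.15, adjusted p 0.0846 by edgeR and 0.00113 by DESeq2). Uqcrq, which also lies beside the ubiquinone site, was at 245, 248, 284 and 236 CPM in WT-1 to WT-4 and 484, 340.4, 329.8 and 377 CPM in KO-1 to KO-4. Uqcr11, another small membrane subunit, was at 155, 163, 194 and 153 CPM in WT-1 to WT-4 and 313, 210.3, 218 and 252 CPM in KO-1 to KO-4. Neither of these overlapped between groups, at log2 fold changes of 0.60 and 0.58 (adjusted p 0.108 and 0.118 by edgeR, 0.0074 and 0.0163 by DESeq2).

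Uqcrc2, Cyc1 and Uqcrc1 had the smallest differences of the 9. With the trend on exon length removed, as described below, they stood at 0.20, 0.25 and 0.49. Uqcrc1 was then at the median of the 9. The trend was fitted on all annotated exonic bases, 4135 for Uqcrc1, whose principal transcript has 1653 bases. Its rank with a trend on transcript length was not tested. Uqcrc1 and Uqcrc2, the core proteins descended from a mitochondrial processing protease, had WT means of 401 ± 82.1 and 238 ± 55.00 CPM and KO means of 550.4 ± 42.3 and 281 ± 39.00 CPM (SD, n = 4 each). Uqcrc1 did not overlap between groups (0.46, adjusted p 0.21 by edgeR), whereas Uqcrc2 did, with KO-1 below WT-1 and WT-3 (0.24, adjusted p 0.554 by edgeR). The value for Uqcrc2 was 0.11 without WT-4 and 0.028 with a score of muscle markers as a covariate. Cyc1, the cytochrome c1 heme protein of the catalytic core, averaged 247 ± 39.9 CPM over the WT libraries and 309 ± 19.4 CPM over the KO libraries, overlapped and had a log2 fold change of 0.32 (adjusted p 0.294 by edgeR). For Cyc1 KO-1 was the lowest KO library, opposite to its place for the small subunits. Cycs, the mobile carrier cytochrome c, also overlapped, with a WT mean of 234 ± 31.7 CPM, a KO mean of 298 ± 25.9 CPM and a log2 fold change of 0.35 (adjusted p 0.243 by edgeR).

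The 11 common complex IV subunits all had log2 fold changes above 0 too, from 0.10 to 0.91 with a median of 0.64, and 9 of the 11 did not overlap between groups. Every KO library lay above every WT library for 7.33% of all genes. DESeq2 called 8 of the 11 higher in KO, against 3.91% of all genes, and limma-voom called 6, against 2.41%. Cox6b1, the subunit on the outer face of the complex where it meets cytochrome c, had the largest difference of all 37 genes. It lay at 237, 255, 276 and 222 CPM in WT-1 to WT-4 and 552, 454, 439.8 and 407 CPM in KO-1 to KO-4. The lowest KO library was far above the highest WT library, and the log2 fold change was 0.91 (SE 0.15, adjusted p 0.0714 by edgeR and 5.24e-07 by DESeq2), a 1.87-fold difference.

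Cox4i1, which binds adenine nucleotides and helps to regulate the enzyme, had the highest mean level per length among the 37 genes. Divided by the length of its principal transcript, its level was 801 ± 81.8 CPM per kilobase as the WT mean and 1312 ± 142 as the KO mean (SD, n = 4 each). By library it stood at 629.8, 572, 694 and 556 CPM in WT-1 to WT-4 and 1165, 962, 923 and 966 CPM in KO-1 to KO-4, with no overlap and a log2 fold change of 0.71 (SE 0.16, adjusted p 0.0841 by edgeR and 4.87e-05 by DESeq2). Cox5a, which binds a thyroid hormone metabolite on the matrix side, was at 272, 249, 282 and 189 CPM in WT-1 to WT-4 and 426, 398, 387 and 386 CPM in KO-1 to KO-4. Its KO libraries lay close together above all WT libraries, at 0.69 (SE 0.16, adjusted p 0.0841 by edgeR and 0.00102 by DESeq2).

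Cox7a2, the common partner of the muscle isoform Cox7a1, was at 80.2, 89.5, 92.1 and 79.4 CPM in WT-1 to WT-4 and 164, 121, 121 and 125 CPM in KO-1 to KO-4. Its WT libraries were nearly level, KO-1 stood above the other KO libraries, and the log2 fold change was 0.64 (SE 0.14, adjusted p 0.0769 by edgeR and 0.00142 by DESeq2). Ndufa4, once counted with complex I and now known to copurify with complex IV, was at 297, 309, 366 and 254 CPM in WT-1 to WT-4 and 564, 415, 459 and 453 CPM in KO-1 to KO-4. Cox6c, a small membrane subunit, was at 269, 265, 328 and 244 CPM in WT-1 to WT-4 and 517, 412, 398 and 406 CPM in KO-1 to KO-4. Both were without overlap, at log2 fold changes of 0.63 and 0.65 (adjusted p 0.104 and 0.0914 by edgeR, 0.0053 and 0.00161 by DESeq2).

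Among the small subunits that span the membrane, Cox7c was at 203, 214, 243 and 188 CPM in WT-1 to WT-4 and 435, 286, 286 and 333 CPM in KO-1 to KO-4 and Cox7b at 176, 179, 213 and 167 CPM in WT-1 to WT-4 and 318, 216, 249 and 272 CPM in KO-1 to KO-4. Neither overlapped between groups, with log2 fold changes of 0.66 and 0.52 (adjusted p 0.101 and 0.129 by edgeR). Cox5b, the zinc-binding subunit on the matrix side, averaged 302 ± 27.6 CPM over the WT libraries and 395 ± 50.6 CPM over the KO libraries (SD, 4 of each). It did not overlap either, by a narrow margin, at a log2 fold change of 0.39 (adjusted p 0.205 by edgeR and 0.0639 by DESeq2).

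**Figure D3:**
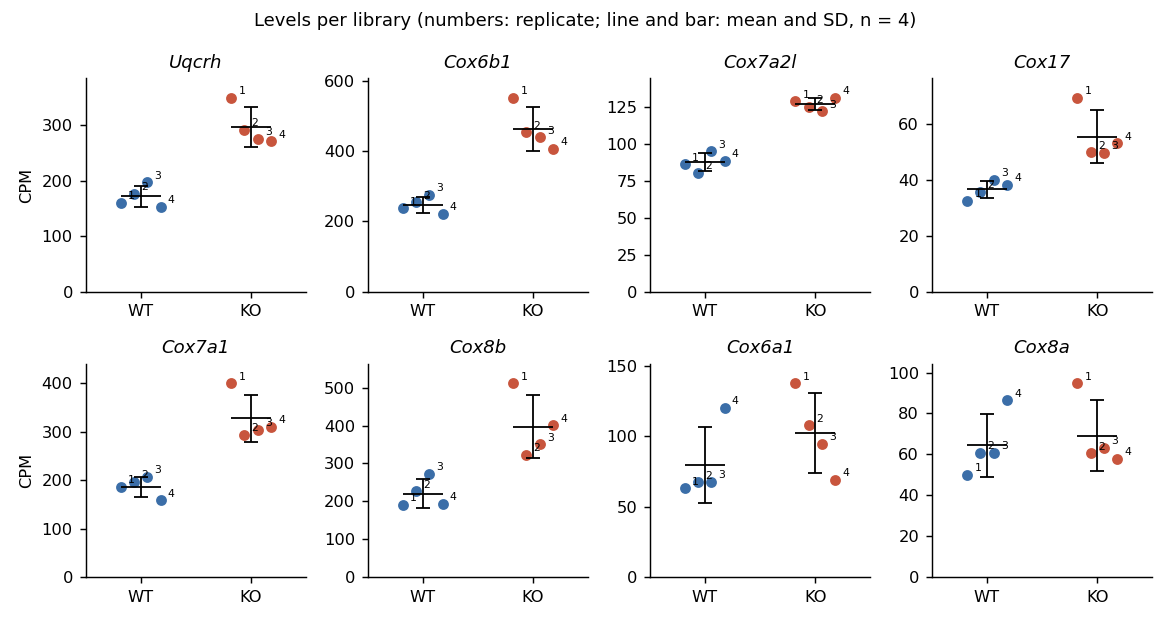
CPM per library of 8 genes in WT (blue) and KO (red), with the replicate number beside each point and the mean and SD (n = 4) as line and bar, on axes that start at 0. Uqcrh, Cox6b1, Cox7a2l, Cox17, Cox7a1 and Cox8b are separated between groups, and Cox6a1 and Cox8a overlap.

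Cox6a1 and Cox8a, the common partners of Cox6a2 and Cox8b, were the exceptions. Cox6a1 was at 63.1, 67.4, 67.7 and 120.2 CPM in WT-1 to WT-4 and 138, 108, 94.6 and 69.3 CPM in KO-1 to KO-4, highest among WT in WT-4 and lowest among KO in KO-4. Cox8a was likewise highest among WT in WT-4 and lowest among KO in KO-4, at 50.01, 60.7, 60.6 and 86.4 CPM in WT-1 to WT-4 and 94.8, 60.5, 63.1 and 57.8 CPM in KO-1 to KO-4. The groups overlapped for both, with log2 fold changes of 0.36 (SE 0.25, adjusted p 0.491 by edgeR; 0.63 without WT-4 and 0.19 without KO-1) and 0.10 (SE 0.20, adjusted p 0.843 by edgeR).

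The same 2 libraries were the extremes of muscle content: WT-4 had the lowest share of muscle markers, 10.5% of counts, and KO-4 the highest, 19.5%. With a score of the muscle markers as a covariate, Cox6a1 had a log2 fold change of 0.76 (edgeR adjusted p 0.0155), and with WT-4 and KO-4 left out it had 0.78 (edgeR adjusted p 0.0373). Cox8a stood at 0.37 and 0.35 in the same fits (edgeR adjusted p 0.14 and 0.258). It changed sign in other settings: -0.012 without scaling by trimmed means and -0.092 without KO-1.

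The 3 muscle isoforms had every KO library above every WT library and were called higher in KO by both DESeq2 and limma-voom. Over all genes these shares were 7.33%, 3.91% and 2.41%. Cox8b, the heart and muscle form of subunit VIII, stood at 191, 227, 272 and 193 CPM in WT-1 to WT-4 and 512, 323, 351 and 401 CPM in KO-1 to KO-4. The highest library was KO-1 and the log2 fold change was 0.85 (SE 0.19, adjusted p 0.0838 by edgeR and 0.00121 by DESeq2). Cox7a1, the muscle form of subunit VIIa, was at 186, 196, 207 and 159 CPM in WT-1 to WT-4 and 401, 294, 305 and 311 CPM in KO-1 to KO-4, with KO-1 apart from the other KO libraries and a log2 fold change of 0.81 (SE 0.15, adjusted p 0.0728 by edgeR and 5.16e-05 by DESeq2). Cox6a2, the muscle form of subunit VIa, was at 424, 398, 493 and 309 CPM in WT-1 to WT-4 and 683, 611, 582 and 692 CPM in KO-1 to KO-4, where KO-4 was highest, with a log2 fold change of 0.66 (SE 0.17, adjusted p 0.102 by edgeR and 0.00439 by DESeq2).

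Cox4i2, the form of subunit IV known from lung and from oxygen sensing, was scarce. It lay at 1.88, 2.08, 2.73 and 2.904 CPM in WT-1 to WT-4 and 3.53, 2.35, 3.67 and 3.15 CPM in KO-1 to KO-4 and overlapped between groups (0.40, adjusted p 0.379 by edgeR). The median log2 fold change of the 3 muscle isoforms was 0.81 and that of their 3 common partners 0.36. With the muscle score as covariate the fold changes of Cox8b, Cox7a1 and Cox6a2 were 0.82, 0.79 and 0.52 (edgeR adjusted p 0.0282, 0.0162 and 0.048), in a fit that called 21 of the 37 genes and 5.06% of all genes higher in KO. In the same fit their common partners Cox6a1, Cox7a2 and Cox8a stood at 0.76, 0.66 and 0.37 (edgeR adjusted p 0.0155, 0.0204 and 0.14), so the medians were 0.79 for the muscle isoforms and 0.66 for the partners, closer than without the covariate. Without WT-4 and KO-4 they were 0.76 and 0.63. The part of muscle content in the differences was not tested.

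Per length of transcript, the muscle forms stood above their common partners in both groups. In WT the level of Cox6a2 was 597 ± 112 CPM per kilobase against 139 ± 47.5 for Cox6a1. Cox7a1 lay at 476 ± 52.4 against 129 ± 9.804 for Cox7a2, and Cox8b at 612 ± 106 against 117 ± 28.1 for Cox8a. In KO the same pairs stood at 944 ± 79.7 and 179 ± 50.1, 834 ± 125 and 202 ± 32.1, and 1102 ± 232 and 126 ± 31.5 CPM per kilobase (SD, n = 4). Cox4i2 was the reverse, at 3.27 ± 0.679 CPM per kilobase in WT against 801 ± 81.8 for Cox4i1.

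Within each library the count of a tissue form was divided by that of its common partner for 4 pairs and by the summed muscle markers for 3 genes, and these 7 ratios were tested on the log2 scale with a two-sided exact permutation test, whose smallest possible p is 0.0286. Counts of Cox8b were 3.81, 3.73, 4.49 and 2.23 times those of Cox8a in WT-1 to WT-4 and 5.4, 5.34, 5.55 and 6.94 times in KO-1 to KO-4. The ratio was higher in 4 of 4 KO libraries than in any WT library, 1.67-fold on average (exact permutation p 0.0286, 0.1 after Benjamini-Hochberg adjustment over the 7). Cox7a1 counts were 2.32, 2.19, 2.24 and 2.0 times those of Cox7a2 in WT and 2.44, 2.44, 2.52 and 2.48 times in KO. This ratio was without overlap too, by 1.13-fold (exact permutation p 0.0286, adjusted 0.1).

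The ratio of Cox6a2 to Cox6a1 overlapped, at 6.72, 5.9, 7.28 and 2.57 in WT and 4.95, 5.66, 6.14 and 9.99 in KO (exact permutation p 0.571, adjusted 0.571). Its mean log2 difference of 0.30 rested on the libraries numbered 4: it was -0.037 without WT-4 and -0.25 without both. Cox4i2 to Cox4i1 was 0.81-fold in KO on average and overlapped (exact permutation p 0.286, adjusted 0.333). No ratio passed 0.05 after adjustment over the 7.

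Set against the summed muscle markers of the same library, the 3 muscle isoforms stood higher in KO on average and overlapped. The ratios were 1.29-fold for Cox6a2, 1.41-fold for Cox7a1 and 1.45-fold for Cox8b (exact permutation p 0.143, 0.0857 and 0.114, each 0.2 after adjustment). In each of the 3 ratios WT-4 was the highest WT library and KO-4 the lowest KO library, in the reverse order of their muscle content.

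**Figure D4:**
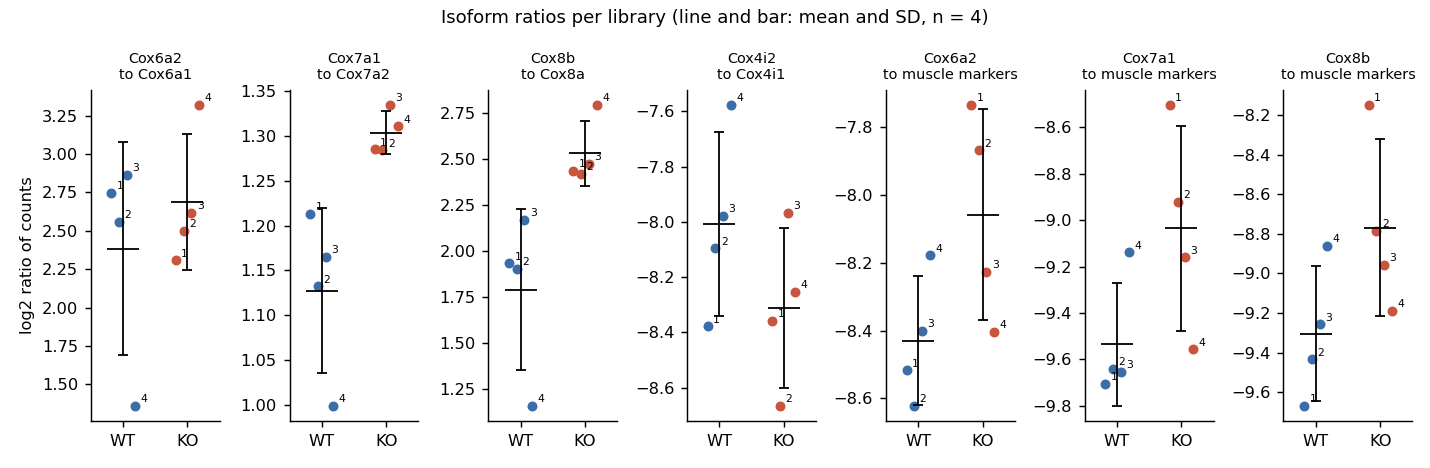
Log2 ratio of counts per library (points, replicate number beside each) with mean and SD (n = 4) for 4 isoform pairs and for the 3 muscle isoforms against the summed muscle markers, each panel on its own axis. Cox7a1 to Cox7a2 and Cox8b to Cox8a do not overlap between groups, and the other 5 ratios do.

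Cox7a2l, which has been linked to supercomplexes of complex III with complex IV, was among the most evenly separated genes. Only its RNA was measured here, and neither its protein nor supercomplexes were. It lay at 86.2, 80.4, 94.8 and 88.7 CPM in WT-1 to WT-4 and 129, 125, 122 and 131 CPM in KO-1 to KO-4. Within each group the libraries were close, with a WT mean of 87.5 ± 5.98 CPM and a KO mean of 127 ± 4.03 CPM (SD, n = 4 each), and the log2 fold change was 0.53 (SE 0.11, adjusted p 0.0728 by edgeR and 2.85e-05 by DESeq2). Leaving out any 1 library kept it between 0.50 and 0.58.

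The assembly factors were expressed at lower levels and had smaller differences. Of the 11 tested, 10 had a positive log2 fold change, the median was 0.39 and 7 did not overlap between groups. Every KO library lay above every WT library for 7.33% of all genes. DESeq2 called 5 of the 11 higher in KO, against 3.91% of all genes, and limma-voom called 3, against 2.41%. Cox17, the copper chaperone that feeds the assembly of both copper sites, was at 32.5, 35.7, 39.9 and 38.1 CPM in WT-1 to WT-4 and 69.4, 49.8, 49.7 and 53.1 CPM in KO-1 to KO-4. The KO libraries were all higher than the WT libraries, with KO-1 apart, and the log2 fold change was 0.60 (SE 0.13, adjusted p 0.0826 by edgeR and 0.00488 by DESeq2).

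Surf1, whose human counterpart is mutated in Leigh syndrome with complex IV deficiency, was at 30.1, 30.01, 31.6 and 34.4 CPM in WT-1 to WT-4 and 43.9, 40.8, 41.4 and 41.1 CPM in KO-1 to KO-4. It had the smallest spread among the assembly factors with an SE of 0.09, no overlap, and a log2 fold change of 0.41 (adjusted p 0.0863 by edgeR and 0.00362 by DESeq2). Cox16, which acts with the copper chaperones on mt-Co2, was at 15.3, 14.6, 16.3 and 12.6 CPM in WT-1 to WT-4 and 22.3, 18.7, 21.8 and 24.1 CPM in KO-1 to KO-4. Its log2 fold change was 0.57 (adjusted p 0.0838 by edgeR), and 2130 of its 3751 exonic bases are shared with Gm20498 on the same strand, so its reads cannot be told apart from those of that gene there.

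Cox14, which holds newly made mt-Co1 for assembly, was at 82.1, 89.97, 97.1 and 78.9 CPM in WT-1 to WT-4 and 139, 99.7, 114 and 126 CPM in KO-1 to KO-4. Cox11, which delivers copper to mt-Co1, was at 14.3, 14.01, 16.5 and 14.4 CPM in WT-1 to WT-4 and 16.99, 18.1, 22.1 and 20.2 CPM in KO-1 to KO-4. Both were without overlap, at 0.46 and 0.39 on the log2 scale (adjusted p 0.127 and 0.147 by edgeR). Cox19, a copper-handling protein of the intermembrane space, averaged 30.7 ± 2.897 CPM over the WT libraries and 37.3 ± 1.87 CPM over the KO libraries (SD, 4 of each), without overlap but by a small margin (0.28, adjusted p 0.195 by edgeR).

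Cox20, which chaperones mt-Co2, was at 9.77, 10.5, 8.202 and 9.32 CPM in WT-1 to WT-4 and 15.4, 13.6, 12.8 and 12.02 CPM in KO-1 to KO-4. The groups were apart, at 0.51 on the log2 scale (SE 0.13, adjusted p 0.102 by edgeR and 0.0164 by DESeq2). Cox20 lies on chromosome 1 at 178319130 to 178322693 on mm10, 5.99 Mb from Kcnj9, the closest of the 38 genes. Of its 883 exonic bases 804 overlap Hnrnpu on the opposite strand, and whether counting used strand was not given in the sources used here. The same doubt applies to other genes, such as Cox11 (688 of 1423 bases, Tom1l1) and Uqcrc2 (504 of 2552 bases, Pdzd9). Cox17 shares 257 of 5773 bases with Gm21987 on its own strand.

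The remaining factors overlapped between groups. Cox10 and Cox15, which make heme a from heme b, had log2 fold changes of 0.37 and -0.080 (adjusted p 0.261 and 0.806 by edgeR), and without WT-4 that of Cox10 was 0.23. Cox18, which inserts mt-Co2 into the membrane, stood at 0.19, and Sco1, a copper chaperone of mt-Co2, at 0.030 (adjusted p 0.517 and 0.95 by edgeR), and without WT-4 that of Cox18 was 0.12. Cox15 had the only negative value of the 37, and the sign of Cox15 and of Sco1 turned when single libraries were left out. Sco2, the partner of Sco1, lay under the floor of 3 counts over a group (0.0224 CPM in WT and 0.0236 CPM in KO), and 856 of its 1253 exonic bases are shared with Tymp on the same strand.

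The subunits encoded in mitochondrial DNA did not share the pattern of the nuclear ones, with 1 of 4 above 0, a median log2 fold change of -0.24 and every gene overlapping. The catalytic subunit mt-Co1 was at 41127, 40978, 38555 and 26016 CPM in WT-1 to WT-4 and 22985, 22432, 25443 and 46592 CPM in KO-1 to KO-4. KO-1 to KO-3 lay below every WT library and KO-4 was the highest of all 8 libraries, with a log2 fold change of -0.32 (SE 0.32, adjusted p 0.655 by edgeR). The complex III core protein mt-Cytb was also highest in KO-4, at 20015, 20909, 19072 and 13298 CPM in WT-1 to WT-4 and 13539.9, 9621, 13387 and 25681 CPM in KO-1 to KO-4 (-0.24, adjusted p 0.758 by edgeR). All transcripts of the mitochondrial genome together took 11.4%, 11.9%, 10.7% and 8.46% of counts in WT-1 to WT-4 and 7.36%, 5.84%, 7.09% and 11.6% in KO-1 to KO-4. Whether this share bears on the nuclear genes was not tested.

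The mitochondrial values depended on WT-4 and KO-4. Without both libraries mt-Co1, mt-Cytb, mt-Co3 and mt-Co2 had log2 fold changes of -0.77, -0.72, -0.67 and -0.092 (edgeR adjusted p 0.052, 0.0712, 0.0431 and 0.748), so that 0 of 4 lay above 0. Only mt-Co3 passed 0.05, and the share of all genes called lower in that fit is not given here. The levels of mt-Co3 and mt-Co2 are uncertain, as described below. With the muscle score as covariate the 4 genes stood, in the same order, at -0.73, -0.63, -0.59 and -0.026 (edgeR adjusted p 0.0751, 0.152, 0.0907 and 0.943).

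The counts of mt-Co2 and mt-Co3 were far lower, with WT means of 21.3 ± 3.796 and 28.3 ± 7.18 CPM and KO means of 24.6 ± 6.84 and 24.1 ± 8.68 CPM (SD, n = 4 each). Rows of other genes with near-identical sequence, at least 95% identity over at least 150 bases, held 135% and 71.8% as many counts as these genes, so their levels are uncertain. For the nuclear genes of both complexes such rows held at most 2.73% of the gene's own counts.

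Further genes of the same pathways were taken from lists of names. Of 6 other assembly factors of complex III all lay above 0 on the log2 scale, with a median of 0.31, and 3 were without overlap. Uqcc3, which stabilises mt-Cytb early in assembly, averaged 34.1 ± 3.74 CPM over the WT libraries and 56.7 ± 9.94 CPM over the KO libraries, without overlap (0.73, adjusted p 0.0728 by edgeR and 0.00092 by DESeq2). Uqcc2 and Uqcc1, which act with it, were at 0.50 and 0.38 on the log2 scale (adjusted p 0.16 and 0.242 by edgeR). Of 17 other assembly factors of complex IV, Pet117 was listed at 0, and the 16 tested all had positive values with a median of 0.46 and 8 without overlap. Every KO library lay above every WT library for 7.33% of all genes.

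Smim20 and Coa3, which act on newly made mt-Co1, and Cmc2, a small protein of the intermembrane space, had log2 fold changes of 0.59, 0.50 and 0.56 (adjusted p 0.0769, 0.091 and 0.0769 by edgeR). DESeq2 called 8 of these 16 and 1 of the 6 above higher in KO, against 3.91% of all genes. Of the 4 isoforms known from testis only Cox6b2 was tested, at -0.12, and Cox8c was listed at 0.

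Among 10 regulators of respiratory genes the values were split, with 7 positive and a median of 0.05. In 1 of them every KO library lay above every WT library, where 7.33% of all genes did so. Tfam, which packages and transcribes mitochondrial DNA, was at 46.7, 37.3, 38.4 and 32.5 CPM in WT-1 to WT-4 and 49.4, 50.9, 53.5 and 53.2 CPM in KO-1 to KO-4, all KO libraries above all WT libraries (0.42, adjusted p 0.125 by edgeR and 0.0512 by DESeq2). Pprc1, a coactivator of the PGC-1 family, was at 34.5, 30.4, 31.9 and 36.2 CPM in WT-1 to WT-4 and 21.7, 28.97, 22.8 and 23.7 CPM in KO-1 to KO-4, with all KO libraries below all WT libraries (-0.45, adjusted p 0.106 by edgeR and 0.0298 by DESeq2). Ppargc1b, another member of that family, overlapped, at 0.32 (adjusted p 0.408 by edgeR).

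Most genes of both complexes have short transcripts, and fold changes in these libraries followed length across all genes. The median log2 fold change was 0.21 in the decile of genes with the fewest exonic bases (38 to 1166) and -0.19 in the decile with the most (9243 to 123179). The genes of complexes III and IV had a median of 1423 exonic bases against 3856 over all genes tested. They also stood higher than genes of like length: 35 of 37 were above the median of their own decile, the exceptions being Cox8a and Cox15. In the shortest decile 14 of them had a median of 0.64 against 0.21, and in the next 10 of them had a median of 0.57 against 0.20. These gaps were smaller than that against all genes tested (0.53 against -0.01).

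With the trend on length removed from the counts before testing, the median of the 37 was 0.44, that of complex III subunits 0.49, of common complex IV subunits 0.50 and of the muscle isoforms 0.68, against 0.23 for their common partners. In that fit 26 of the 37 were higher at an unadjusted p under 0.05 (9.75% of all genes) and 0 passed an adjusted p of 0.05 by edgeR (0.0229% of all genes). Length here is all annotated exonic bases, which can far exceed the principal transcript. Cox6c has 3567 and 738 bases by the 2 measures, and Cox17 has 5773 and 3690. What gave rise to the trend was not tested.

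**Figure D5:**
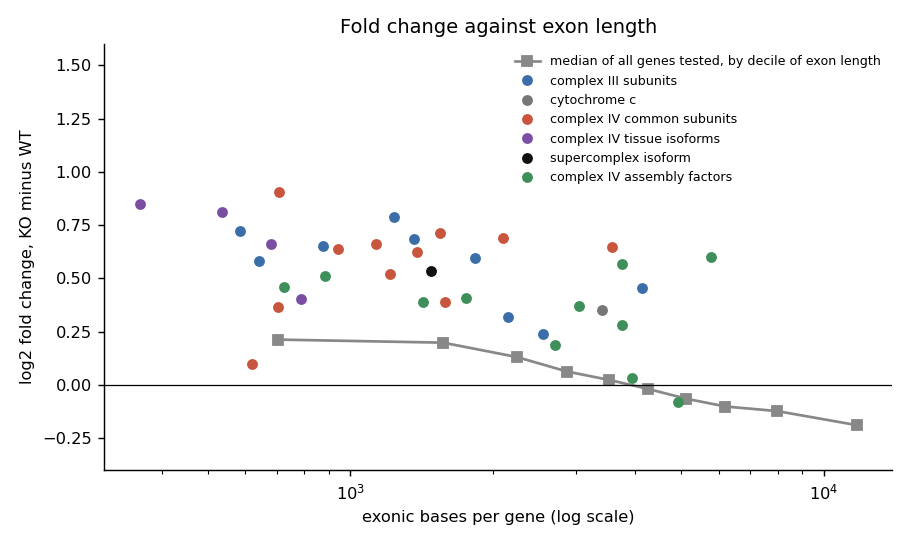
Log2 fold change (KO minus WT) against exonic bases per gene (log axis) for the 37 tested genes, colored by role, with the median of all genes tested in each decile of exon length (gray squares). The gray line falls from 0.21 to -0.19, and 35 of 37 points lie above the median of their decile.

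The other nuclear-encoded respiratory complexes stood higher in KO as well, in the same comparison of the same libraries. Of 36 complex I subunits all were positive with a median of 0.63, of 4 complex II subunits all were positive with a median of 0.54, and of 15 ATP synthase subunits 14 were positive with a median of 0.71. The numbers without overlap were 30, 3 and 12, where every KO library lay above every WT library for 7.33% of all genes. Ndufc2 of complex I averaged 87.1 ± 8.31 CPM over the WT libraries and 154 ± 18.5 CPM over the KO libraries (0.82, adjusted p 0.0714 by edgeR), and Atp5mpl of the ATP synthase 109.6 ± 10.5 and 222 ± 32.8 CPM (1.01, adjusted p 0.0675 by edgeR). Sdhb, the iron-sulfur subunit of complex II, was at 0.76 (adjusted p 0.0941 by edgeR). For the 20 common subunits of complexes III and IV, the like group, the median was 0.63 and 16 were without overlap. Differences between the complexes were not tested.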

How the data were processed

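Total RNA of 4 WT and 4 KO femoral shafts was sequenced, and the authors deposited raw read counts for 49315 Ensembl genes. Per the submitters' processing notes, bcl2fastq 2.17, STAR 2.5.2b, featureCounts of Subread 1.5.2 and mm10 were used. Which annotation was used, and how strand and reads with several matches were treated, was not given in the sources used here. GENCODE M21 gave a symbol to 48970 identifiers and none to 345.

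Counts were analysed with edgeR 4.0.16 in R 4.3.3: genes kept by its default filter, scaling by trimmed means (TMM), a quasi-likelihood fit of KO against WT over all 8 libraries and Benjamini-Hochberg adjustment over the 17450 genes. CPM used the scaled totals, and CPM per kilobase divided them by the principal transcript. DESeq2 1.42.0 and limma 3.58.1 (voom with sample weights) were alternatives. The edgeR fit was tried on simulated counts, where it recovered 7.58% of the genes given a 1.5-fold difference. Recovery rose to 62.3% at 2-fold and 86.2% at 4-fold, and 4.81% of its calls were genes given no difference. The 1.5-fold differences were therefore mostly missed by this fit in the simulation. Only 200 genes were given a difference there. In the data 1673 genes were higher in KO and 1499 lower at an unadjusted p under 0.05 by edgeR. The adjustment over all genes thus met different conditions, and the recovery cannot be carried over to the genes of complexes III and IV. No such simulation is given for DESeq2 or limma-voom. Ratios added 0.5 to each count. The genes and lists were chosen with earlier results of these data known. All 38 genes could be named, with values per library for those of smallest p in each role, up to 3 genes of each other list, and all 4 mitochondrial-genome partners.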

Additional observations from a re-analysis of the deposited data

Results flagged for a closer look

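In 12 of 88 groups of 4 libraries examined, the highest or lowest library stood far from the other 3 by Dixon's test. Chance flags about 1 in 20 groups. KO-1 accounted for 7 of the 12. It was the highest KO library for Uqcrb at 383 CPM (the others at 307 to 311), Uqcr10 at 341 CPM (254 to 262), Cox6c at 517 CPM (398 to 412), Cox7a2 at 164 CPM (121 to 125), Cox7a1 at 401 CPM (294 to 311) and Cox8a at 94.8 CPM (57.8 to 63.1). For Cyc1 KO-1 was the lowest KO library, at 280.1 CPM against 316 to 321.

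Among WT libraries, WT-4 was far above the others for Cox6a1, at 120.2 CPM against 63.1 to 67.7, and WT-3 for Cox11, at 16.5 CPM against 14.0 to 14.4. KO-4 was far above the other KO libraries for Cox19, at 40.1 CPM against 36.2 to 36.6. On the log2 scale the ratio of Cox8b to Cox8a was 2.79 in KO-4 against 2.42 to 2.47, and that of Cox7a1 to the summed muscle markers was -9.14 in WT-4 against -9.71 to -9.64.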

How the results depend on the processing

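The direction of most genes held under the 19 alternatives tried per gene: 618 gene values kept direction and side of the threshold, 73 came to pass it and 12 changed sign. The number of the 37 genes called depended on the test: 0 by edgeR, 23 by DESeq2, 17 by limma-voom with sample weights, 3 by edgeR without a low-count filter, 21 with a muscle score as covariate, 9 without WT-4 and KO-4, and 15 at an adjusted p of 0.10. Of all genes, 3.91%, 2.41%, 0.171%, 5.06%, 1.61% and 1.83% were called higher in KO in these 6 alternatives, in the same order. It was 0 in every other edgeR fit, including each fit that left out 1 library.

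Without TMM scaling the median of all genes shifted by -0.10 on the log2 scale and that of the 37 genes was 0.43, with 34 higher and 3 lower. All genes at an unadjusted p under 0.05 then split into 841 higher and 1973 lower, against 1673 and 1499. Same-numbered libraries did not deviate alike from their group means (correlations -0.187, -0.166, -0.247 and -0.568), which cannot show whether the animals were paired. With a replicate block the median of the 37 was 0.54, 24 were higher at an unadjusted p under 0.05 (5.05% of all genes) and 0 were called.

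Sign changes concerned values near 0, and their cause was not tested. Cox8a (0.10) was at -0.012 without TMM, -0.028 with the length trend removed, -0.0042 without WT-1 and, over the fits that left out 1 library, between -0.092 (without KO-1) and 0.27. Cox15 (-0.080) ranged from -0.16 to 0.0020 (without WT-1). Sco1 (0.030) was at -0.010 by limma-voom, -0.057 without TMM, -0.093 with the muscle score, -0.025 without WT-2, -0.0011 without KO-1 and -0.078 without WT-4 and KO-4, with a range from -0.072 (without WT-4) to 0.16 over the fits that left out 1 library. The log2 ratio of Cox6a2 to Cox6a1 (0.30) ranged from -0.037 to 0.46 with 1 library left out and was -0.25 without WT-4 and KO-4.

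Leaving out 1 library, the median of the 37 ranged from 0.46 to 0.60, the genes without overlap from 27 to 30 and those with an unadjusted p under 0.05 from 25 to 29. The log2 ratios ranged from 0.53 to 0.87 for Cox8b to Cox8a and from 0.13 to 0.21 for Cox7a1 to Cox7a2. Counts of genes without overlap and of unadjusted p under other settings were added after seeing the data. Sco2 had too few counts for any comparison, and 4 libraries a group allow no exact p below 0.0286.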
